A study of Mus musculus with 10 samples.

Results

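The regions described are H3K27ac regions of the YSM list whose midpoint lies inside a protein-coding gene of mouse. There were 553 of them, among 892 regions of the YSM list and 1320 regions deposited in all. H3K27ac, an acetyl mark on histone H3, was mapped by CUT&Tag, an assay that directs a tagging enzyme to antibody-bound chromatin and sequences the DNA released there. The cells were brain parenchymal macrophages sorted from Ms4a3Cre:R26-tdTomato mice, with 4 YSM and 4 MDM libraries, all under the treatment DR-3x, a label left without explanation. MDM is spelled out in the series title as monocyte-derived macrophages, YSM is not, and both groups share the genotype and the treatment label. The Ms4a3 promoter that drives Cre is active in granulocyte-monocyte progenitors, so the reporter marks the descendants of that stage.

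The members were selected on measured values. The authors' test between YSM and MDM placed a region in a list, and the gene coordinates placed its midpoint in a gene. A list named for a group is read here as regions with more H3K27ac in that group, a direction that the deposited lists do not state. They give no level, fold or value per library, so no replicate error can be attached to any region, depth is unknown, and every interval below covers counting error only. In sorted cells, more marked cells and more mark per cell cannot be told apart. The nearest members to the edge of the rule were at Ranbp3l and Ryk, with midpoints 0 and 2 bp inside the end of the gene. The nearest regions left out were at Tppp and Olfr156, 17 and 24 bp outside.

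As background, H3K27ac marks active promoters and active enhancers, and many enhancers of a cell type lie in the introns of the gene they serve or of a neighbouring gene. Microglia, the resident macrophages of the brain parenchyma, depend on signals such as TGF-beta and on transcription factors such as Sall1 to keep their identity. Macrophages that enter the brain from the blood take up many features of microglia but are known to lack part of that program. A region inside a gene is therefore a statement on position, and which gene it acts on is not measured here.

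Some intragenic regions spanned a whole RefSeq promoter, the 250 bases before to 50 after a transcript start (GRCm38.p6, the assembly of mm10). Those of 3 microglia identity genes and 2 retinoid receptor genes are shown, because these starts of identity and receptor genes lie inside members. Each line gives the 250 bases before the start, 5' to 3'. Capitals mark matches, within these bases and on either strand, to the 9 motifs searched, whose letters are given with their counts in the promoter results. The lines are Sall1 at chr8:89044163-89044412 (minus strand), Adgrg1 at chr8:94984149-94984398 (plus), Fscn1 at chr5:142960105-142960354 (plus), Rarb at chr14:16575477-16575726 (minus), and Rxrg at chr1:167598112-167598361 and chr1:167618015-167618264 (plus).
Sall1: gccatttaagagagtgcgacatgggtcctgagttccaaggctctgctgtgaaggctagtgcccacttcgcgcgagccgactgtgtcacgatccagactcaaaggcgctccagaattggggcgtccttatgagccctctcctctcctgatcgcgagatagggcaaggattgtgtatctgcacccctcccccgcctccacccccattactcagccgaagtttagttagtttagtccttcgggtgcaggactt
Adgrg1: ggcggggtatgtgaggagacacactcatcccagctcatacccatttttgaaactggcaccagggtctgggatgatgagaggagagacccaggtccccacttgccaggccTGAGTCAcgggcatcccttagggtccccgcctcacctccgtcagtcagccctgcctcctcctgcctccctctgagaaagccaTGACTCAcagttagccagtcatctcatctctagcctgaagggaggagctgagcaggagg
Fscn1: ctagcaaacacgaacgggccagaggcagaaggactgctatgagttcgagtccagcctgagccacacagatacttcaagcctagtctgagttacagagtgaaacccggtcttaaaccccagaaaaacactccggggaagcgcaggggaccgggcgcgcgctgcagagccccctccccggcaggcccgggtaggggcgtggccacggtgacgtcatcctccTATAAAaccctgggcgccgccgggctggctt
Rarb: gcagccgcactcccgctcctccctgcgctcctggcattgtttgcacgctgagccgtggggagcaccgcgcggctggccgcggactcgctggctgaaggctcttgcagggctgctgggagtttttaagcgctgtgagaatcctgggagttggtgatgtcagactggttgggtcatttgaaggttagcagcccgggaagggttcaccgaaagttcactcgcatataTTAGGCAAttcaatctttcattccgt
Rxrg first start: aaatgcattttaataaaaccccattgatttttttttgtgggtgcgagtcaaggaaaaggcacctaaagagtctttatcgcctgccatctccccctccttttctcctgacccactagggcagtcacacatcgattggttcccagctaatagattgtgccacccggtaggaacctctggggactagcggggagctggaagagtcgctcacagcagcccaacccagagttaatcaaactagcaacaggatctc
Rxrg second start: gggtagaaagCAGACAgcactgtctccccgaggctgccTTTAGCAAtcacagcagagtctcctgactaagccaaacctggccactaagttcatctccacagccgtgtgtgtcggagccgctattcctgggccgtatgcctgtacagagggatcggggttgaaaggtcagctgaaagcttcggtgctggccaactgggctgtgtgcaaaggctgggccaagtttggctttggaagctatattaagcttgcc

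The Sall1 stretch shown and the first Rxrg stretch held no match to the searched motifs. Members held 3 Sall1 promoters, of which the outermost is shown; of the others, the one at chr8:89042863-89043112 held an ETS core 180 bases before its start. The promoters of Tppp and of the nuclear receptor gene Nr3c2 also lay inside members and are not shown. The Adgrg1 stretch held 2 AP-1 matches, beginning 141 and 59 bases before the start, and the Fscn1 stretch held a TATA box 31 bases before it. The second Rxrg start had a SMAD and a C/EBP match, 240 and 212 bases before it, and Rarb a C/EBP match 26 bases before it. A match is a description of these letters and not a binding site.

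Klf12, Ptprm, Magi1 and Col25a1 held the most members. The 553 regions lay in 348 protein-coding genes, 1.59% of the 21896 in the table. One region lay in 24 overlapping genes at once, most of them of the gamma-protocadherin cluster, and with the longest gene only per region the number of host genes was 324. A single region was held by 228 genes, 2 by 65, and 3 or more by 55. The leading 10 genes held 63 regions, or 11.4% of the members. In the MDM list, 216 regions lay in 146 genes (0.667% of the table), and the leading 10 held 19.4%.

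Members lay close together. Of the 553, 269 (48.6%) had another member within 12.5 kb, and joining at that distance gave 390 groups, of which 284 were single regions and 106 held 2 or more. YSM regions outside genes did much the same, with 156 of 339 (46.0%) joined, a difference of 2.63 percentage points (95% interval -4.12 to 9.37). Every region is 2001 bp long, and 206 members (37.3%) overlapped another member. Overlapping members share sequence, so groups rather than regions are the units of the tests below. The median span of groups with 2 or more regions was 3.07 kb inside genes and 3.17 kb outside.

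Klf12, which encodes a Krüppel-like transcriptional repressor, held 12 members in 5 groups, the most of any gene. Of these, 3 overlapping regions lay near the start of the gene, with midpoints 0.996, 1.31 and 2.36 kb from it. A group of 6 (chr14:100209821-100237026) lay 49.9 to 75.1 kb in, and the other 3 members lay 25.1, 260 and 352 kb in. The 6-region group spanned 27.2 kb, the longest span of any intragenic YSM group. The gene is 420 kb long, and its members thin out toward the far end.

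Ptprm and Magi1, both on the cell junction list, came next. Ptprm, a receptor tyrosine phosphatase that binds its own kind on neighbouring cells, held 10 members in 6 groups, all between 7.22 and 221 kb from its start, in the early part of a 688 kb gene. Magi1, a scaffold of tight and adherens junctions, held 8 in 4 groups, from 0.134 kb (chr6:94282795-94284795) to 124 kb of a 608 kb gene. Jam2, a junctional adhesion molecule, held 5, of which 3 overlapping regions lay at one end of the gene (chr16:84773216-84775216 the outermost) and the others 9.30 and 24.1 kb from the nearest end. Marveld2, the tricellular junction protein tricellulin, held 3 overlapping regions 15.6 to 16.4 kb from its start (chr13:100599609-100601609 the farthest). Pkp4, a plakophilin, held 3 separate ones, 71.0, 156 and 178 kb in. Together 5 of the 56 cell junction genes (8.93%) held 29 members, against 1.59% of all genes. All gene lists were drawn up with earlier results of these data known, so this share and those of the lists below are descriptions. The median junction gene was 64.6 kb long and the median gene 17.1 kb, and long genes held regions more often. The MDM list had regions in 4 other genes of the same list: Ptprk, a phosphatase of the same subfamily as Ptprm, with 4, and Ctnnd2, Dlg2 and Pard3b with 1 each.

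**Figure D1:**
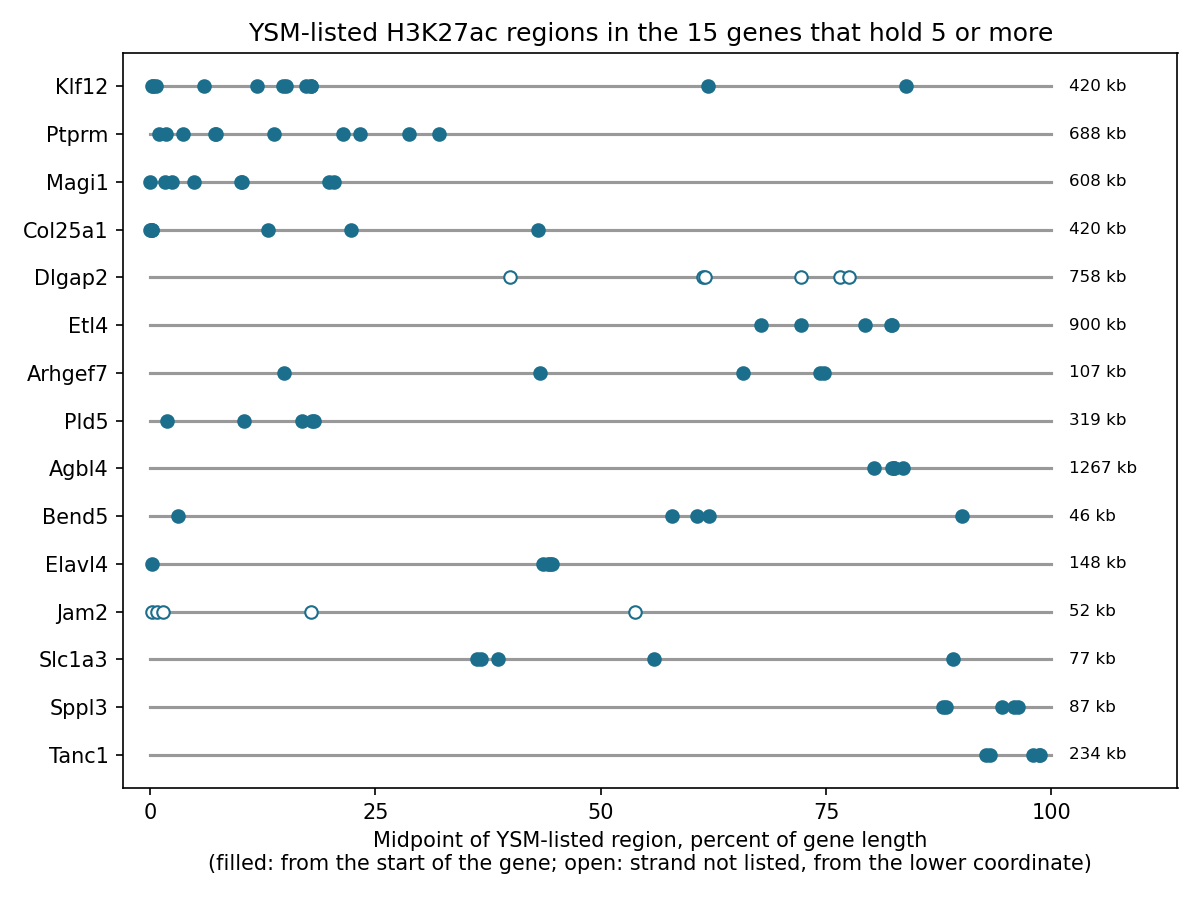
Each row is 1 of the 15 genes that held 5 or more members, and each point the midpoint of a region as a percent of the gene's length (filled: from the gene's start; open: from its lower coordinate, where no strand is listed). Regions of Klf12, Ptprm and Magi1 crowd toward the start, whereas those of Sppl3 and Tanc1 lie in the last part of the gene.

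Extracellular matrix genes held members at promoters and deep inside. Col25a1, a membrane-bound collagen, held 7 in 4 groups: 4 overlapping regions near the start, with midpoints 0.0300 to 1.08 kb from it, and single regions at 55.0, 93.7 and 181 kb. Fbn2, which encodes fibrillin-2, held 4, Spock1, a proteoglycan of the testican family, 3, and Col15a1, a basement membrane collagen, 2 near its start (chr4:47207426-47209426 the outermost). Col5a3 and Fbln1 held 1 each. In all 6 of 90 matrix genes (6.67%, against 1.59% of all genes) held 18 members, and 2, Col19a1 and Tnr, held MDM regions (2.22%, against 0.667%). Matrix genes were long, with a median of 78.7 kb, and of all genes of 30 to 100 kb and 100 to 300 kb, 2.27% and 5.93% held a member. Among metalloproteases 4 of 86 held members (4.65%), Adamts1, Adamts16 and Adamts17 with 2 each and Adam32 with 1. Adam19, with 5, and Mmp27, with 1, held MDM regions (2.33%).

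Elavl4, which encodes the RNA-binding protein HuD, held 5, with 1 region over the gene start (chr4:110350699-110352699) and 4 overlapping ones 64.6 to 66.1 kb in. The 4 together span 3 other listed promoters of the gene. Dlgap2, a postsynaptic scaffold, held 6 in 4 groups, with no strand listed, so its regions were not placed from a start. Adarb1, the RNA editing enzyme ADAR2, and Khdrbs3, a splicing regulator, held 4 each, and Rbfox1, another splicing regulator, held 3, between 1005 and 1197 kb from its start. The Rbfox1 member chr16:7068856-7070856 spans another listed promoter of that gene. Opcml, an immunoglobulin-family adhesion protein, held 4 between 779 and 832 kb into a gene of 1135 kb.

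Sppl3 and Tanc1 carried all their members near the far end. Sppl3, a protease of the signal peptide peptidase family, held 5 in 1 group, 76.8 to 84.1 kb into a gene of 87.3 kb. Tanc1, a scaffold protein, held 5 in 1 group, 217 to 231 kb into 234 kb. Slc1a3, the glutamate transporter GLAST, best known from astrocytes, held 5 in 2 groups: 4 lay 27.9 to 42.9 kb from its start and 1 lay 68.3 kb from it. Bend5 lies inside Agbl4, and the same 5 regions counted for both; 1 of them, chr4:111414244-111416244, spans a listed promoter of Bend5.

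Regulators of small GTPases and second messengers held members at 1 or a few sites each. Arhgef7, an exchange factor for Rac and Cdc42, held 5 in 3 groups between 15.9 and 80.2 kb of a 107 kb gene. Dock9, an exchange factor for Cdc42, held 3 in 1 group, and Rapgef2, an exchange factor for Rap1, held 4 in 2. Among 255 ion channel genes 5 held members (1.96%), a share near the 1.59% of all genes. Kcnma1, the gene of a calcium-activated potassium channel, held 3 members, 165, 180 and 232 kb from its start. Of 385 solute carriers 11 held members (2.86%) and 3 held MDM regions (0.779%, against 0.667% of all genes).

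Creb3l2, a transcription factor activated at the endoplasmic reticulum, held 4 in 1 group, 10.8 to 22.9 kb from its start (chr6:37418369-37420369 the farthest). Eva1a, a membrane protein linked to autophagy, held 4 in 1 group, 1.51 to 7.10 kb into the gene. Slc35f4, a solute carrier, held 4 in 1 group, 94.4 to 97.6 kb in. Gatb, which serves mitochondrial translation, held 4 in 1 group, 22.3 to 30.4 kb from the nearest end of the gene. Klhl3, a substrate adaptor of a cullin ubiquitin ligase, held 4, of which 3 overlapped 54.8 to 55.9 kb from the start and 1 lay 88.8 kb from it. Pld5, a member of the phospholipase D family, held 5 in 3 groups, all in the early part of a 319 kb gene, 6.17 to 58.0 kb from its start.

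Of 75 axon guidance genes 3 held members (4.00%, against 1.59% of all genes), and 3 others, Plxna4, Epha7 and Neo1, held MDM regions (4.00%, against 0.667%). Efnb2, the ligand ephrin-B2, held 3 in 1 group, 7.38 to 11.6 kb from its start (chr8:8648610-8650610 the farthest). Sema6a, a transmembrane semaphorin, held 3 in 3 groups, and Slit1, a secreted ligand of Robo receptors, held 1. Among 57 immunoglobulin-family and neurexin-type adhesion genes 3 held members (5.26%, against 1.59% of all genes) and 4, Chl1, Cntnap2, Lrrtm4 and Ncam2, held MDM regions (7.02%, against 0.667%). The median gene of that list was 291 kb long. Cntn5, a contactin, held its 2 members at 1133 and 1222 kb from the start, near the far end. Timd4, a receptor for phosphatidylserine on dying cells, held 2 overlapping regions 23.4 and 23.7 kb into a gene of 33.5 kb (chr11:46833176-46835176 the first). With Megf11 it made 2 of 41 scavenger and phagocytic genes (4.88%), and Msr1 and Cd163 were the 2 with MDM regions.

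Microglia identity genes held members in 8 of 58 cases (13.8%, against 1.59% of all genes), and the median gene of the list was 26.7 kb long. None held an MDM region, where 0.667% of all genes did, so that in a list of this length a count of 0 shows little. The list was drawn up with earlier results of these data known and includes genes already seen in the YSM list, so its count is a description and not evidence of direction. Sall1, a zinc finger regulator of microglia identity, held 3 overlapping regions near its start, with midpoints 0.358, 0.684 and 1.25 kb from it (chr8:89042804-89044804 the nearest). Adgrg1, the adhesion receptor GPR56, held 2 overlapping regions 9.39 and 10.3 kb into the gene, and both spanned the promoter shown above. Fscn1, an actin-bundling protein, held 1 region 0.196 kb from its start. Tppp, a tubulin-binding protein, held 1 at 0.580 kb (chr13:74008999-74010999) and 1 at 7.59 kb. Khdrbs3, Jam2, Mcf2l and Csmd3 completed the 8. Of 12 defining microglia markers 1, Sall1, was a host; P2ry12 and Tmem119 were among those without a member. Genes of monocytes and engrafted macrophages held members in 0 of 56 cases, a count that likewise shows little beside 1.59% of all genes, and 4 of the 56, Gm9733, Anxa1, Mgst1 and Sirpb1c, held MDM regions (7.14%, against 0.667%). That list too was drawn up with earlier results of these data known, so its MDM share is a description and not evidence of direction. Of 7 markers of border-associated macrophages 0 held members and 1, Cd163, held an MDM region.

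Of 105 macrophage transcription factors 5 held members (4.76%, against 1.59% of all genes), 19 regions in all: Klf12 with 12, Sall1 with 3, Nfia with 2, and Etv6 and Runx1 with 1 each. This list and the others in this paragraph were drawn up with earlier results of these data known, so their shares are descriptions. Nfia, a nuclear factor I gene, held 1 region 85.0 kb in and 1 near its far end, 531 kb in. The MDM list had regions in Dach1, with 3, Foxp1 and Hoxb4 (2.86% of the list, against 0.667% of all genes). Among 48 nuclear receptor genes 3 held members (6.25%): Rarb, a retinoic acid receptor, with 3, Rxrg, a retinoid X receptor, with 2, and Nr3c2, the mineralocorticoid receptor, with 1. Esr1, the estrogen receptor gene, held an MDM region. Median lengths were 29.4 kb on the transcription factor list and 48.4 kb on the nuclear receptor list. Of 63 genes of TGF-beta and BMP signalling, the activin receptor gene Acvr2b (chr9:119437860-119439860) and the signal transducer gene Smad1 (chr8:79388440-79390440) held 1 member each (3.17%), and Ltbp1 held an MDM region. Of 71 Wnt pathway genes, with a median length of 32.0 kb, 5 held members (7.04%, against 1.59% of all genes), Tcim with 3 overlapping regions and Fzd8, Lgr5, Nkd1 and Ryk with 1 each. None held an MDM region, but only 0.667% of all genes did, so that count shows little. Of 70 genes of innate and inflammatory signalling, 1 held a member, the TNF receptor gene Tnfrsf1b (chr4:145221191-145223191). That share of 1.43% is near the 1.59% of all genes. MDM regions lay in 4, Lrrk2, Ifi44l, Nlrc4 and Nod2 (5.71%, against 0.667% of all genes).

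Markers of other brain cells appeared among the hosts. Members lay in 2 of 25 genes of the neuronal list (8.00%, Rbfox1 and Celf4) and 2 of 16 of the astrocyte list (12.5%, Slc1a3 and Slc4a4). They also lay in 2 of 18 genes of the oligodendrocyte list (11.1%, Mbp and Tmem163). Of all genes 1.59% held a member. The microglia identity list stood at 13.8%, but it includes genes already seen in the YSM list. Median lengths were 62.8, 14.2 and 17.7 kb on the neuronal, astrocyte and oligodendrocyte lists, and Rbfox1 is 1528 kb long. No gene of these lists held an MDM region, but only 0.667% of all genes did, so that count shows little. Of the defining markers, 0 of 8 for neurons, 1 of 6 for astrocytes (Slc1a3) and 1 of 8 for oligodendrocytes (Mbp) held a member. No endothelial, lymphocyte or neutrophil marker on the lists held a region of either kind. These lists had 16 and 24 genes, too few for a count of 0 to show much beside 1.59% and 0.667% of all genes. Whether other cells contributed to the members was not tested, since no level per library is at hand. No ribosomal or housekeeping gene, of 90, held a member. That list's median gene was 3.45 kb long, and 0.151% of all genes under 10 kb held a member, so this count shows little too.

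**Figure D2:**
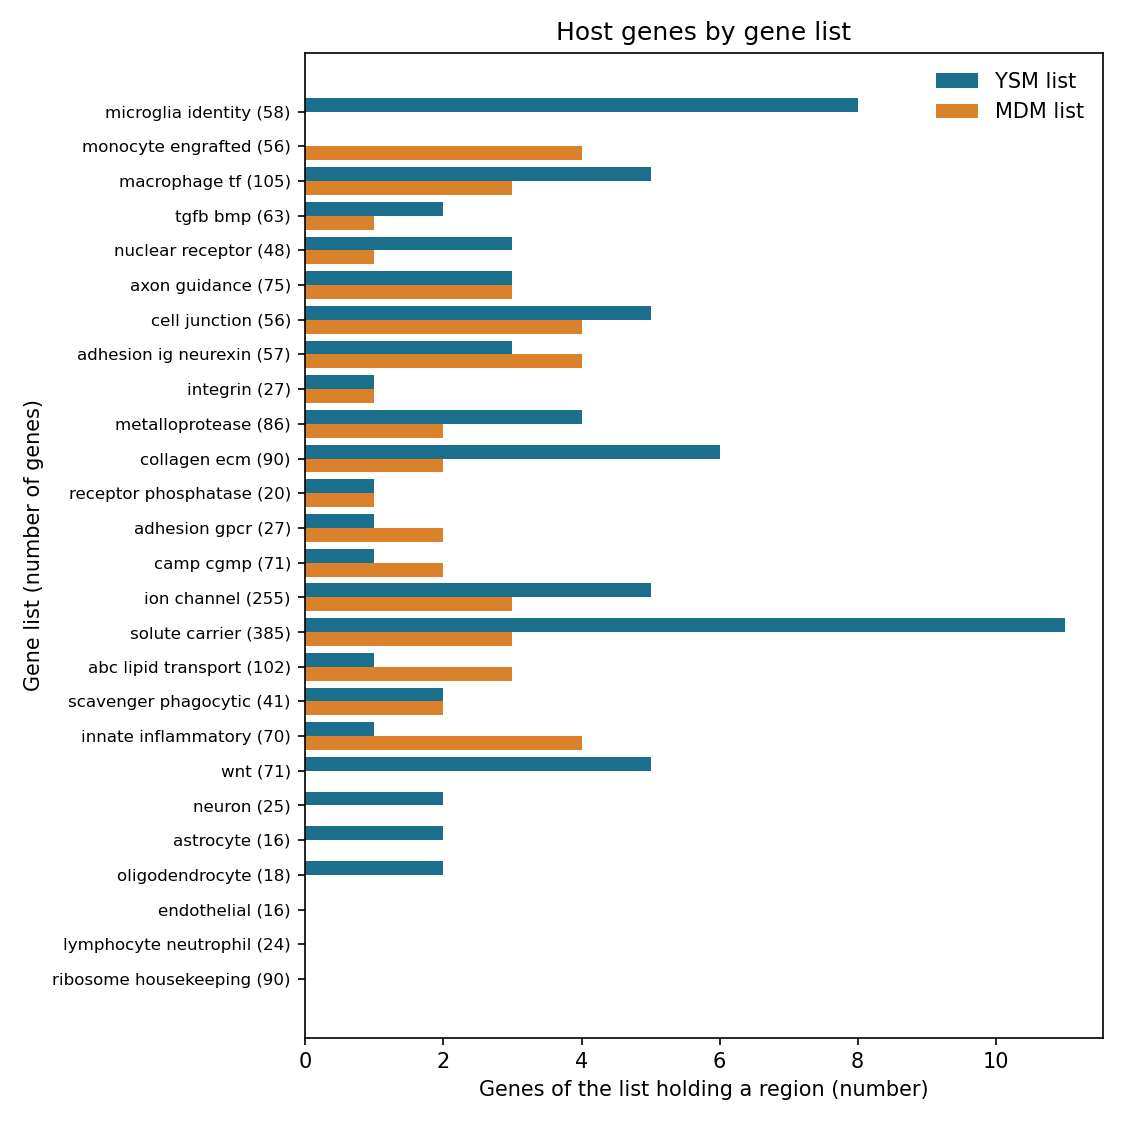
Bars give the number of genes of each list shown that hold a YSM (blue) or MDM (orange) region, with the list's size in brackets; the cadherin list is left out because its 21 YSM genes share 1 region. Microglia identity shows 8 YSM and 0 MDM hosts, and monocyte and engrafted macrophage genes 0 and 4. All lists were drawn up with earlier results of these data known. The identity list includes genes already seen in the YSM list, and in lists of this length a count of 0 shows little.

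Host genes were long. Their median length was 96.6 kb, against 17.1 kb for all protein-coding genes, and 48.3% were over 100 kb, against 11.1% of all. MDM host genes had a median of 117 kb. The share of genes with a member was higher in longer genes, from 0.151% of genes under 10 kb (95% Clopper-Pearson interval 0.0781 to 0.264) to 10.3% of genes over 300 kb (7.86 to 13.1). Per length of gene the members were spread more evenly: 5.22 regions per 10 Mb in genes under 10 kb, 6.25 in those of 30 to 100 kb, and 4.11 in those over 300 kb. The MDM list gave 1.23, 2.10 and 1.82 regions per 10 Mb in the same classes, the first of them from 4 regions. Over the union of all gene bodies the 2 lists stood at 5.36 and 2.09 regions per 10 Mb, a ratio of 2.56 to 1, and outside genes the ratio of region numbers was 1.60 to 1.

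**Figure D3:**
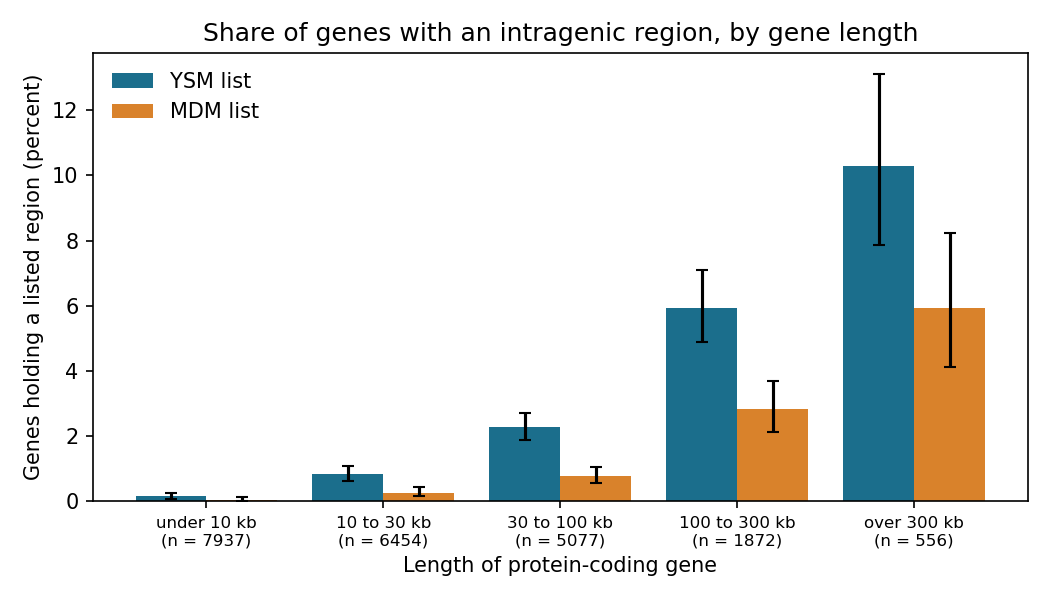
Bars give the percent of protein-coding genes in each length class that hold a YSM (blue) or MDM (orange) region, with exact 95% intervals for counting error. Both shares climb with length, to 10.3% and 5.94% of genes over 300 kb.

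Members lay later in their genes than intragenic MDM regions. For 261 of 348 host genes the strand was listed, and 314 YSM and 142 MDM groups could be placed. The median group sat 57.5% of the way along the gene in the YSM list (quartiles 23.1 and 79.3) and 44.3% in the MDM list (14.7 and 66.8). Before the middle of the gene (50% of its length) lay 142 of 314 YSM groups (45.2%, 95% interval 39.6 to 50.9) and 82 of 142 MDM groups (57.7%, 49.2 to 66.0). The difference was -12.5 percentage points (-22.3 to -2.71, Fisher's exact test, two-sided, p = 0.0152, adjusted p = 0.0253 over 5 tests). Among host genes under 200 kb it was -10.5 points, short of the threshold of 0.05 (Fisher's exact test, adjusted p = 0.158), and without groups that reach a gene start it was -10.1 points (adjusted p = 0.0939).

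**Figure D4:**
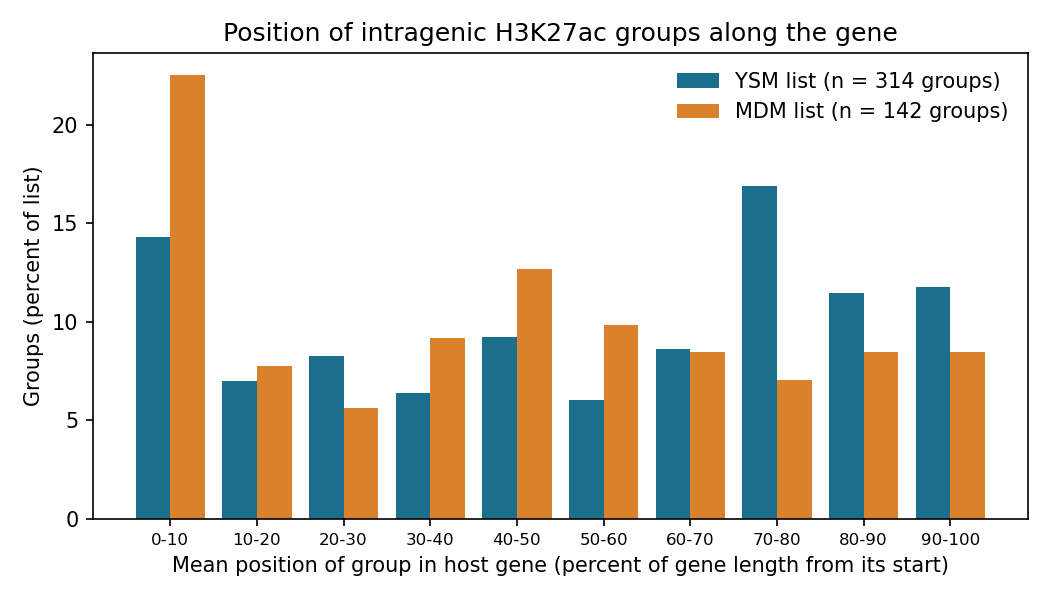
Bars give the percent of 314 YSM (blue) and 142 MDM (orange) groups in each 10% of the host gene's length, from its start at the left. MDM groups are most frequent in the first 10% (22.5% against 14.3% of YSM groups), and the stretch beyond 70% holds 40.1% of YSM and 23.9% of MDM groups.

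The lists differed in the far part of genes as well. The stretch beyond 70% of the gene's length held 126 YSM groups (40.1%) and 34 MDM groups (23.9%), a split chosen after the values were seen and not tested. All members in Sppl3, Tanc1 and Rarb lay there, those of Rarb 74.3% to 84.1% of the way along. The same holds for 4 of the 5 members in Etl4. The Rarb member chr14:16574595-16576595 spans a listed promoter of Rarb itself, so a far position can still be at a start of the host gene. A region near the far end of a gene may also lie near the start of the next gene, and its target is not known from these lists.

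A lower share of intragenic YSM groups than of MDM groups covered the start of a protein-coding gene. A start was the 5' end of the gene where the strand was listed and either end where it was not. It was covered by 43 of 390 YSM groups (11.0%, 8.10 to 14.6) and 31 of 171 MDM groups (18.1%, 12.7 to 24.7), a difference of -7.10 percentage points (-13.7 to -0.545, Fisher's exact test, two-sided, p = 0.0295, adjusted p = 0.0369). Counted per host gene the shares were 19.0% and 21.9%, and their difference of -2.95 points missed the threshold (Fisher's exact test, adjusted p = 0.460). That count takes the region in 24 overlapping genes, gamma-protocadherin genes for the most part, once for each of them. Without that region the shares were 42 of 324 host genes (13.0%) and 21.9%, which differ by -8.95 points (95% interval -16.6 to -1.31; adjusted p = 0.0243 by Fisher's exact test), an alternative chosen after seeing the data. With a start within 2.5 or 5 kb of the midpoint the differences were -6.81 and -5.48 points (Fisher's exact test, adjusted p = 0.0518 and 0.151). Other listed starts inside a gene were not counted. With them, 58 of 390 YSM groups (14.9%) and 38 of 171 MDM groups (22.2%) covered a start. That difference was -7.35 points (Fisher's exact test, adjusted p = 0.0481), an alternative chosen after seeing the data. By the definition above, which leaves such starts out, most members lay far from a start: 54 of 553 covered one, 88 lay 1 to 10 kb away, 213 lay 10 to 50 kb away and 198 farther. Intragenic MDM regions did so too, with a median distance of 35.7 kb against 28.2 kb for members. More than 50 kb away lay 40.7% of them and 35.8% of members, and 1 to 10 kb away 10.2% and 15.9%.

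Members over gene starts or other listed starts included developmental regulators and receptors. Prox1, a homeobox transcription factor, had 3 overlapping members, the outermost 0.215 kb inside its start (chr1:190169612-190171612). Ryk, a Wnt co-receptor, had 1 at its very start (chr9:102833922-102835922). Rxrg had 1 region 0.108 kb from its start (chr1:167597470-167599470) and the other 20.1 kb in, over its second listed start. Nr3c2 had its region 4.11 kb inside the gene (chr8:76901188-76903188), over a listed start as well.

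Of the RefSeq promoters 48, from 39 genes, lay entirely within an intragenic YSM region, and 29, from 29 genes, within an intragenic MDM region. Their median ratio of observed to expected CpG was 0.670 and 0.390, against 0.567 over all 21262 promoters. A ratio over 0.6 was found at 25 of 39 YSM genes (64.1%), 7 of 29 MDM genes (24.1%) and 50.8% of all 17491 genes in the table. Some genes, Rxrg, Elavl4 and Sall1 among them, contribute more than 1 start, so promoters of a gene are not independent, and the comparison was chosen after the values were seen and has no test.

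**Figure D5:**
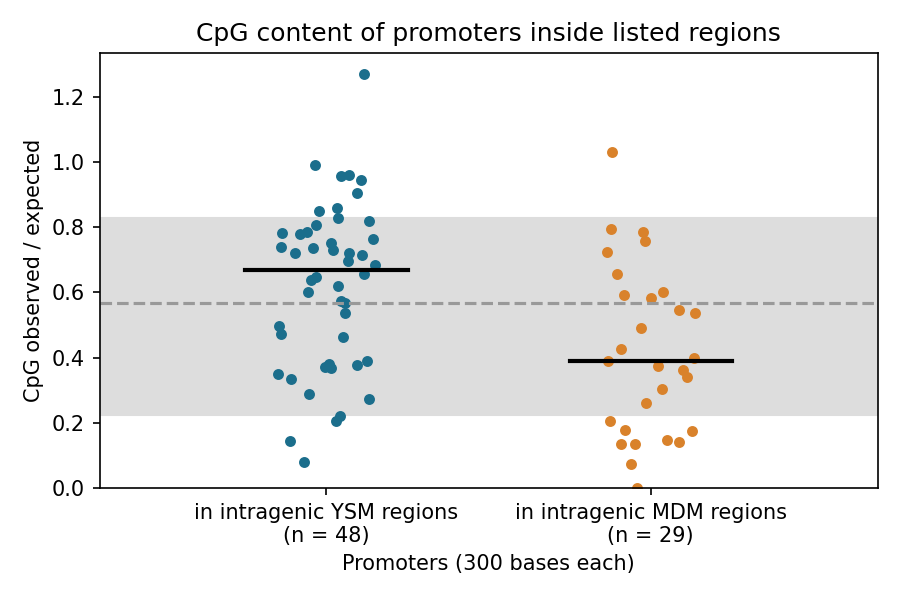
Points are promoters of 300 bases lying whole inside intragenic YSM (blue, n = 48) or MDM (orange, n = 29) regions, with black lines at the medians of 0.670 and 0.390. The dashed line and grey band give the median (0.567) and quartiles of all promoters.

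The ETS core GGAAGT, on either strand, was found in 9 of 48 YSM promoters (18.8%), 13 of 29 MDM promoters (44.8%) and 24.8% of all. The longer PU.1 form GAGGAAGT, which contains that core, was found in 0 of either and in 3.13% of all. TTGCNNAA was found in 8 of 48 YSM promoters (16.7%) and 10.2% of all, AACCACA (RUNX) in 4 (8.33%) and 4.71%, CAGACA in 8 (16.7%) and 18.9%, and TGACTCA in 1, that of Adgrg1, and 4.66%. CACGTG (an E-box) was found in 2 (4.17%) and 7.84%, TATAAA in 4 (8.33%) and 12.6%, and a MEF2 motif in 2 (4.17%) and 3.47%. With so few promoters no share is called different.

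Of 348 YSM and 146 MDM host genes 3 were shared: Dpp6, Fhit and Slc9a9. Only 0.667% of all protein-coding genes held an MDM region, so the low count does not show that the lists keep to separate genes. In Slc9a9, a sodium-proton exchanger of endosomes, the YSM region chr9:95151124-95153124 and the MDM region chr9:95071725-95073725 lay 79.4 kb apart. In Dpp6, a partner of potassium channels, 1 YSM region lay 280 kb from the nearest of 3 MDM regions. In Fhit, a large gene at a fragile site, the closest of 2 YSM regions lay 583 kb from the MDM region. Over all YSM hosts the median distance from the gene to the nearest MDM region was 3976 kb.

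Of 348 host genes 40 (11.5%) had a YSM region outside any protein-coding gene within 100 kb of them, and 15 of 146 MDM hosts (10.3%) had such an MDM region. For 82 of 339 outside regions (24.2%) the nearest protein-coding gene was a host. Hosts were 1.59% of all genes but were long. Neither share was computed over all genes or genes of like length, so whether members and outside regions cluster was not tested. At Tppp, Prox1 and Nova1, members and outside regions lay on either side of the gene's start.

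The whole number that ends each region's name in the authors' deposited table has no stated meaning. It was 4 or more in 96 of 553 members (17.4%, 14.3 to 20.8), 52 of 339 YSM regions outside genes (15.3%) and 123 of 216 intragenic MDM regions (56.9%). Counted as groups, members and outside regions differed by 2.63 percentage points (-3.01 to 8.26, Fisher's exact test, two-sided, p = 0.426, adjusted p = 0.426), which missed the threshold. The MDM value comes from the same contrast as the lists and is given as a description. The score in the authors' deposited table was above 1 in 13 members, up to 27 at Tanc1 (chr2:59842191-59844191), followed by 17 at Sh3bgrl2, 16 at Elavl4, 15 at Fgd6 and 14 at Xxylt1 and Phc3.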

How the data were processed

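The labels name 4 YSM and 4 MDM H3K27ac CUT&Tag libraries; 2 k27me3 libraries were not analysed here. The deposited data are 2 region lists with no header. Regions are on mm10, per the submitters' processing notes, where HOMER, Picard, Bowtie2 2.2.5 and Trimmomatic 0.39 appear as names without a step. Threshold, scaling and direction of the authors' test were not given in the sources used. The deposited score is a whole number of unstated meaning. Positions are printed from 1. Genes and promoters came from RefSeq (GRCm38.p6): 21896 protein-coding genes, of which 17491 (79.9%) had a listed start and strand. Exons, introns and UTRs were not separated. Regions of 1 list with a gap of at most 12.5 kb were joined, and shares of groups were tested by a two-sided Fisher's exact test, with Benjamini-Hochberg adjustment over 5 tests and a threshold of 0.05; a group counted as inside genes if at least 50% of its regions were, and took the lower median of their name numbers. The 5 tests include the share inside genes and the name number against MDM regions, which only describe the lists. Their small p-values lower the adjusted p-values of the other tests. The p-values compare groups of regions, not animals, and whether libraries came from separate animals is not stated. Intervals are 95%: exact Clopper-Pearson for shares, normal for differences. Named were the 30 genes with the most members, hosts in the identity, transcription factor, TGF-beta and nuclear receptor lists, up to 6 of other lists, hosts of the highest scores, of covered starts and of both lists; other names were chosen after their values were seen. Of 2120 symbols or family members in 28 gene lists, 3 had no protein-coding gene. The counts of 1 list are not reported here. Members, lists and tests were chosen with earlier results of these data known. The joining, gene assignment and test were tested on made-up regions. Python 3.11.15, pandas 2.3.3 and scipy 1.17.1 were used.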

Additional observations from a re-analysis of the deposited data

How the results depend on the processing

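No paired analysis was possible because both deposited lists lack per-library columns. Leaving out single libraries could not be done either. Of 40 alternative values, 33 kept their direction and their side of the threshold or stayed within the stated limits, 6 no longer passed and 1 turned. The share of groups inside genes was 10.1 points higher in the YSM than in the MDM list (63.1% against 53.0%, Fisher's exact test, adjusted p = 0.00797). With genes of all types it was 4.82 points (-1.51 to 11.2) and no longer passed. Both compare whole lists on the values that also chose the members, list and gene position, so they describe the lists and not the members. For covered starts, -7.10 points became -6.81 within 2.5 kb, -5.48 within 5 kb and -2.95 per host gene, or -8.95 per host gene without the region in 24 overlapping genes. For positions before the middle of the gene, -12.5 points became -10.5 in host genes under 200 kb and -10.1 without groups that reach a start, an alternative chosen after seeing the data, as were those without that region, without predicted genes and with other definitions of a start. Both of these tests have fewer groups. For name numbers inside against outside genes, 2.63 points turned to -2.13 with 2 or more (p = 0.598, Fisher's exact test). The causes were not tested. The number of members ran from 495 to 620, of groups from 345 to 411 and of host genes from 324 to 424.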

Other observations

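Members were unevenly spread over chromosomes. Chromosome 14 held 51 (9.22% of members, with 3.88% of protein-coding genes) and chromosome 6 held 47 (8.50%, 5.14%), whereas chromosome 11 held 9 (1.63%, 7.35%) and X held 0 (with 4.41% of genes). Of intragenic MDM regions, 4.17% lay on chromosome 14, 12.5% on 6, 4.63% on 11 and 0 on X. The high share of chromosome 6 and the lack of regions on X were thus shared with the MDM list. YSM regions outside genes numbered 18, 17, 9 and 1 on these chromosomes. On chromosome 10 lay 18 members and 29 intragenic MDM regions. These counts were chosen after they were seen and were not tested.

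Some members lie in predicted genes whose copies resemble each other, where reads may be hard to place. Gm3239, Gm3248 and Gm3739 on chromosome 14 held 1 each, all within 1.14 kb of the start of the gene, and 6 members lay only in genes named Gm or LOC and a number. Without such genes 547 members remained.

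A pair of overlapping members lies inside Nbeal2, a gene needed for platelet alpha granules. The microRNA gene Mir8107 lies within the one at chr9:110634497-110636497, which has a name number of 6. Its mature form, from RefSeq with the seed (bases 2 to 8) in capitals, is mmu-miR-8107: uGGAAACUaguggcugggaca.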
